A study of Homo sapiens with 30 samples.

Results

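The comparison described here asks whether A673 and CHLA10 cells that persisted for 20 days in a BET bromodomain inhibitor differed in their response to it. A673 and CHLA10 are established Ewing sarcoma cell lines, and the labels give the EWS::FLI1 fusion as the genotype of both. The members are 12 of the 30 libraries of the series, taken by the labels: A673 cells exposed to 5 nM BMS-986158 for 20 days, A673 cells in the vehicle DMSO, CHLA10 cells exposed to 5 nM BMS-986158 for 20 days, and CHLA10 cells in DMSO, with 3 libraries in each group. The labels do not state for how long the cells of the 20-day vehicle groups had been in DMSO. Per the labels' protocols, exposure to the drug was continuous, the cells were split when they were confluent, and medium with drug was renewed while they did not grow. A673 cells were kept in RPMI1640 with 10% fetal bovine serum, and CHLA10 cells in IMDM with 20% serum and an insulin, transferrin and selenium supplement (ITS-X), both with 2 mM glutamine. Line and medium therefore cannot be told apart in any difference between the lines. Another 12 libraries, of the same lines after 3 days, serve below only to date the difference.

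BET proteins read acetylated histones and help RNA polymerase II into elongation, and inhibitors such as BMS-986158 displace them from chromatin. EWS::FLI1 is a fusion transcription factor that activates one set of genes and represses another, the repressed set being rich in adhesion, matrix and mesenchymal genes. Ewing sarcoma cells are known to move between states with high and low fusion activity, and cells of the low state are more adherent and mesenchymal.

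The quantity reported is the response difference: the log2 change with BMS-986158 over DMSO in A673 minus the same log2 change in CHLA10. A positive value says that the gene moved further up, or less far down, in A673. Levels are CPM, counts scaled by trimmed-mean (TMM) library sizes to a total of 1e+06. They are not divided by gene length, so they compare samples and not genes. Each estimate comes with its standard error and the adjusted p of edgeR's quasi-likelihood test with Benjamini-Hochberg adjustment over all genes tested; a gene is called where that p is below 0.05. The labels do not say whether the 3 libraries of a group were made from separate cultures; the p-values therefore rest on library-to-library spread, which may be technical. In bulk RNA, fewer cells of a kind and less RNA per cell cannot be told apart.

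The difference in DNA replication genes was one-sided, with no gene of their list called higher, so the promoters of 2 genes of that list are shown. E2F1, a transcription factor that drives entry into S phase, and GINS2, a subunit of the replicative helicase, both had negative response differences. The 250 bases before each gene's start are RefSeq sequence of GRCh38.p14, written 5′ to 3′ on the gene's strand. Capitals mark each match to TTTNNCGC, the E2F binding motif with its middle bases left free, on either strand (GCGNNAAA on the other); matches may overlap.
E2F1 (chr20:33686386-33686635, minus strand): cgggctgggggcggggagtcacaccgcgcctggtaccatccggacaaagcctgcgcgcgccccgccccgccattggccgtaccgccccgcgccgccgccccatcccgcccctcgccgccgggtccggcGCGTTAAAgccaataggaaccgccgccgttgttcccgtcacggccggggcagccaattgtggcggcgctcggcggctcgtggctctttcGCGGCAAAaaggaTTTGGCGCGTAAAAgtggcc
GINS2 (chr16:85688955-85689204, minus strand): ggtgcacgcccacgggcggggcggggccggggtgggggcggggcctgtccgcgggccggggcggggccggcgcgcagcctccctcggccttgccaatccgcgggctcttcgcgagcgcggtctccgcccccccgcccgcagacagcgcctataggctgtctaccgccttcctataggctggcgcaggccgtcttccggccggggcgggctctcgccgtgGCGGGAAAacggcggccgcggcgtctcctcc
E2F1 had 4 matches and GINS2 had 1. Of the promoters in the table, 2078 of 35116 (5.92%) held a match, against 13 of the 35 promoters (37.1%) of the 27 genes of the G1/S and DNA replication list that the table holds. This count describes letters in a window and was not tested against the response.

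Depth, in units of 1e+06 counts per library, was 17.4 to 20.8 in treated A673 and 19.8 to 28.3 in A673 vehicle libraries, against 25.1 to 26.3 in treated CHLA10 and 17.4 to 20.5 in CHLA10 vehicle libraries. Mitochondrially encoded genes took 2.03 to 3.58%, 1.68 to 2.96%, 0.995 to 2.24% and 1.71 to 2.48% of the counts in those groups. Library 3 stood apart in several groups: the SD over genes of its log2 difference from the mean of the other libraries of its group was 0.738 in treated A673, 0.642 in treated CHLA10 and 0.573 in CHLA10 vehicle cells, against 0.397 to 0.569 for the rest of the 12 libraries. Counts of lists are therefore also given without the third treated A673 library, and without the 4 most distant libraries (these 3 and the third A673 vehicle library of day 3). No libraries were alike within counting noise. Markers of Ewing sarcoma were present in all 4 groups, with summed levels of 1070 to 1130 CPM in treated and 1470 to 1570 CPM in vehicle A673 cells, and of 2100 to 2870 CPM in treated and 2290 to 2710 CPM in vehicle CHLA10 cells. The 10 leukocyte markers summed to 6.16 to 9.02 CPM in treated and 16.7 to 19.5 CPM in vehicle A673 libraries. In CHLA10 they summed to 7.93 to 21.4 CPM in treated and 14.6 to 16.8 CPM in vehicle libraries. Of these, PTPRC, CD3E, CD3D, MS4A1 and LYZ had no counts in treated libraries of either line. In vehicle libraries only CD3E, CD3D and MS4A1 had none.

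Of 16713 genes tested, 3666 (21.9%) had a called response difference, 1904 of them higher in A673 (11.4%) and 1762 lower (10.5%). The difference was at least 2-fold in 946 of the higher and 835 of the lower ones, and the median over all genes was 0.01. With library sizes taken as plain totals, higher calls were 40.7% of all calls, against 51.9% with TMM sizes. In A673 alone 6627 genes (39.7%) were called, 3298 up (19.7%) and 3329 down (19.9%), and in CHLA10 alone 5627 genes (33.7%), 2754 up and 2873 down. Of these, 1777 rose and 1867 fell in A673 without a call in CHLA10, and 1297 rose and 1347 fell in CHLA10 without a call in A673. Genes called in both lines mostly moved in the same direction. Of 2983 genes called in both lines, 2523 (84.6%) moved in the same direction, 1259 up and 1264 down. The other 460 moved in opposite directions: 262 rose in A673 and fell in CHLA10, and 198 fell in A673 and rose in CHLA10. The 9 treated-minus-vehicle pairs of A673 libraries all lay above the 9 of CHLA10 in 1664 genes (9.96%), and all below in 1810 (10.8%).

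**Figure D1:**
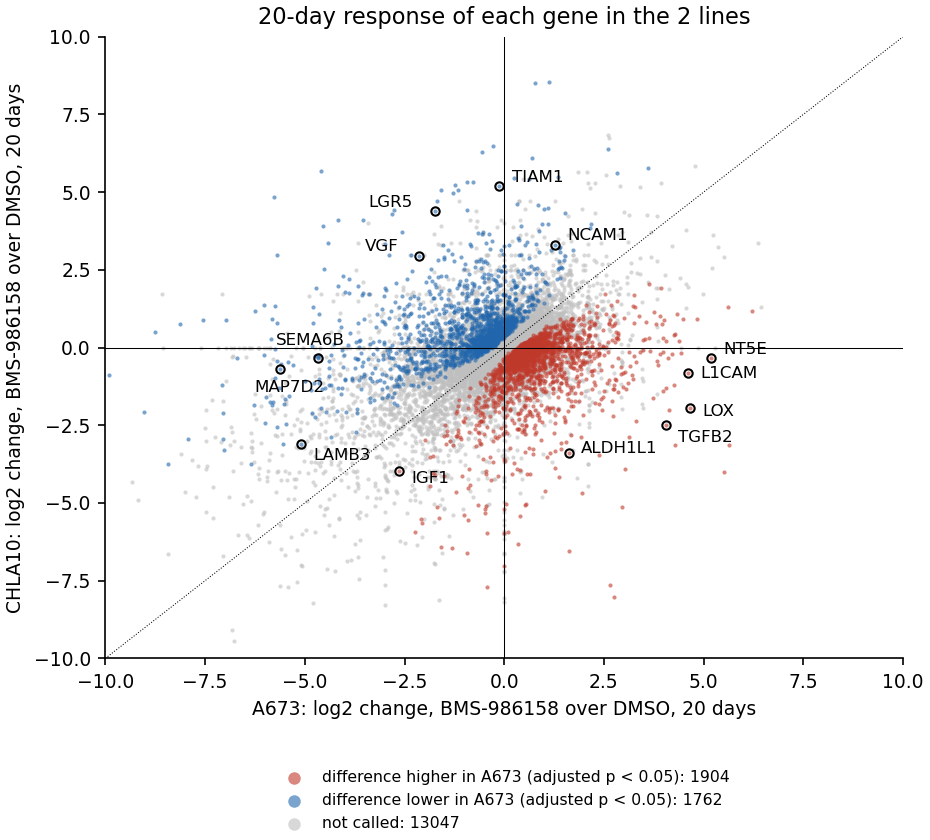
Each point is a gene tested, with its log2 change with BMS-986158 over DMSO after 20 days in A673 on the horizontal axis and in CHLA10 on the vertical axis; the dotted diagonal marks equal change, and genes beyond 10 on either axis are not drawn. The 1904 genes called higher (red) lie to the right of the diagonal and the 1762 called lower (blue) to its left; LOX and TGFB2 sit at lower right, LGR5 and VGF at upper left, and IGF1 and LAMB3 fell in both lines.

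The genes with the largest positive differences included genes of adhesion, matrix and mesenchymal cells that rose in A673 and fell or were not called in CHLA10. LOX, lysyl oxidase, which crosslinks collagen and elastin (ENSG00000113083, GRCh38 chr5:122063195-122078360, minus strand), had 321, 419 and 33.2 CPM in treated A673 libraries and 19.1, 5.58 and 5.38 CPM in A673 vehicle libraries. CHLA10 cells had 82.0, 52.1 and 71.4 CPM in treated and 261, 270.3 and 253 CPM in vehicle libraries. Treated libraries were all above vehicle in A673 and all below in CHLA10. LOX thus rose by 4.67 ± 0.60 (log2, SE) in A673 and fell by 1.93 in CHLA10, a response difference of 6.60 ± 0.79 (edgeR adjusted p = 4.64e-06). The third treated A673 library had far less LOX than the others, and without it the difference was 7.12.

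TGFB2, a ligand of the TGF-beta family, had 32.7, 47.9 and 3.32 CPM in treated and 3.40, 0.954 and 0.484 CPM in vehicle A673 libraries. CHLA10 cells held 14.7, 10.9 and 31.1 CPM in treated and 55.6, 65.5 and 199.8 CPM in vehicle libraries. The third treated A673 library fell within the range of the vehicle libraries; in CHLA10 the groups did not overlap. Its response difference was 6.55 ± 0.96 (adjusted p = 4.39e-05). LIMS2, a LIM-domain partner of integrin-linked kinase at focal adhesions, had 42.9, 48.2 and 4.28 CPM in treated and 4.08, 3.30 and 2.08 CPM in vehicle A673 libraries, against 4.16, 3.36 and 4.04 CPM in treated and 18.6, 18.1 and 23.0 CPM in vehicle CHLA10 libraries. Vehicle CHLA10 cells thus held more LIMS2 than vehicle A673 cells, and treatment turned that order round in the first 2 libraries but left the third A673 library level with CHLA10. The difference was 5.68 ± 0.75 (adjusted p = 8.44e-06). S100A4, a calcium-binding protein of motile mesenchymal cells, had 126, 129 and 23.1 CPM in treated and 14.0, 14.3 and 13.6 CPM in vehicle A673 libraries, and 0.544, 0.887 and 0.856 CPM in treated and 3.14, 2.64 and 5.01 CPM in vehicle CHLA10 libraries. It moved in opposite directions without overlap in either line, with a difference of 4.95 ± 0.63 (adjusted p = 5.01e-06).

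In other genes at the top of the order, A673 rose and CHLA10 was not called. NT5E (CD73, a surface enzyme that makes adenosine and marks mesenchymal stromal cells) had 425, 473 and 80.1 CPM in treated and 13.4, 6.60 and 6.88 CPM in vehicle A673 libraries, with a response difference of 5.50 ± 0.76. L1CAM, a neural adhesion molecule, differed by 5.44 ± 0.76, and EPAS1 (HIF-2alpha), a transcription factor of the hypoxia response, by 4.44 ± 0.56. PDLIM1, an actin-associated LIM protein, differed by 4.59 ± 0.76. TNXB, a tenascin of the matrix, differed by 4.43 ± 0.73, but it shares sequence with a pseudogene copy and lost its call under limma-voom. ADM, the vasodilator peptide adrenomedullin, rose in A673 and fell in CHLA10 (5.35 ± 0.65), as did ALDH1L1, an enzyme of folate metabolism (5.03 ± 0.45). HCLS1, a cortactin relative of blood cells, had 8662 counts in treated and 9363 in vehicle A673 libraries, against 0 in treated and 14 in vehicle CHLA10 libraries. With a floor of 3 counts over the treated group, CHLA10 cells were 6-fold lower than vehicle cells after scaling for library size. The vehicle value itself rests on 6, 2 and 6 counts, so this is no strict bound.

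**Figure D2:**
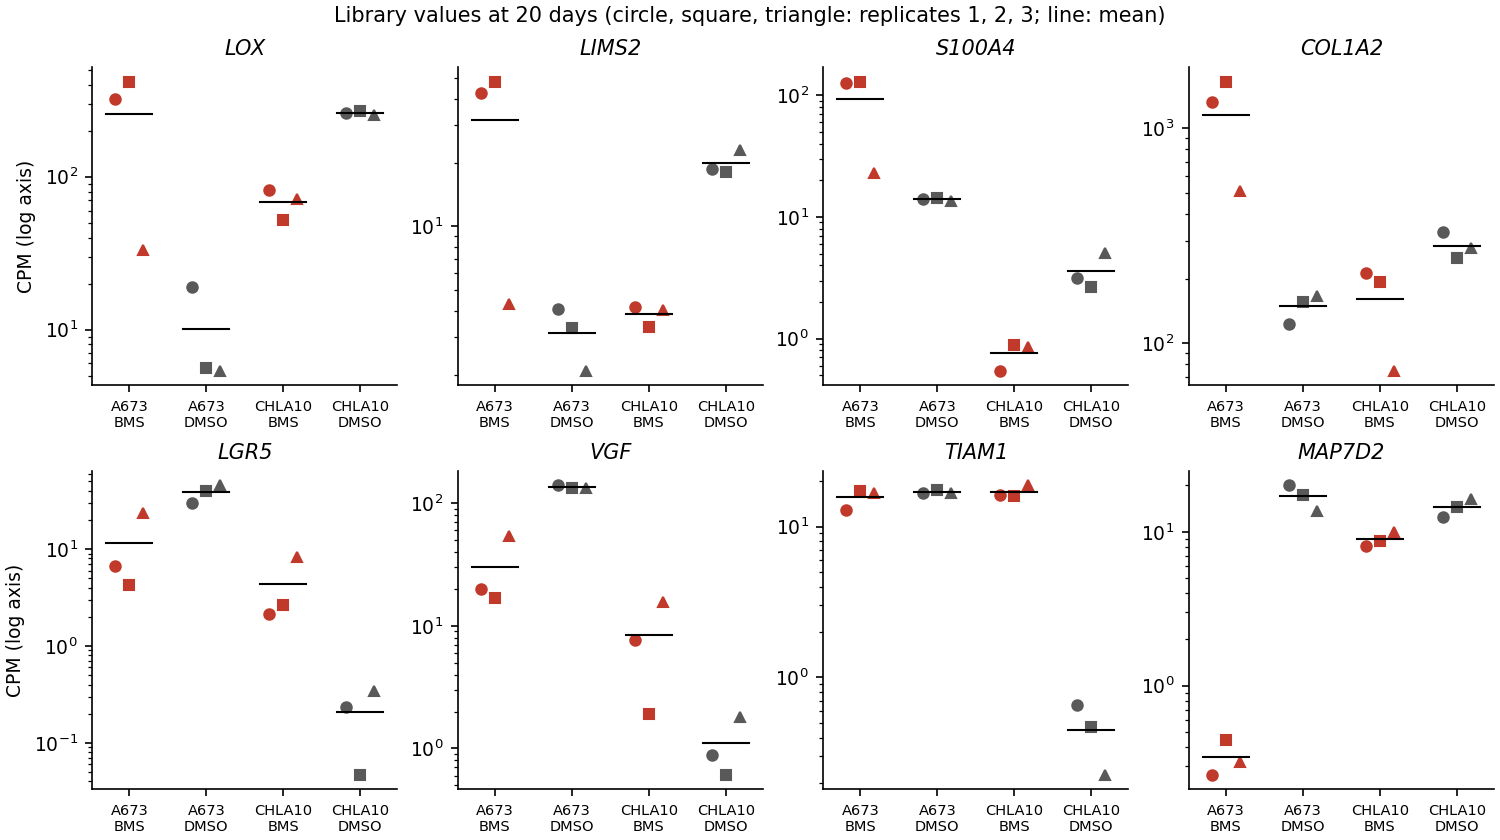
Level in CPM (log axis) of 8 genes in each of the 12 libraries, treated in red and vehicle in grey, with a line at each group's mean. LOX, LIMS2 and S100A4 were higher in treated than in vehicle A673 libraries and lower in treated than in vehicle CHLA10 libraries, the third treated A673 library (triangle) being the lowest of its group; LGR5 and VGF show the opposite, TIAM1 moved in CHLA10 and MAP7D2 mainly in A673.

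The genes with the largest negative differences included genes of neural cells and of signalling. LGR5, a receptor for R-spondins that amplifies WNT signals (GRCh38 chr12:71439770-71586310, plus strand), had 6.67, 4.26 and 23.4 CPM in treated and 29.8, 39.96 and 45.3 CPM in vehicle A673 libraries. In CHLA10 it had 2.14, 2.62 and 8.36 CPM in treated and 0.234, 0.0472 and 0.341 CPM in vehicle libraries. It fell in A673 and rose in CHLA10 without overlap in either line, with a response difference of -6.14 ± 0.95 (adjusted p = 6.85e-05); without the third treated A673 library it was -7.20. VGF, a neuropeptide precursor of neuroendocrine cells, had 20.1, 16.9 and 54.2 CPM in treated and 139, 133 and 133 CPM in vehicle A673 libraries, and 7.70, 1.92 and 15.8 CPM in treated and 0.891, 0.614 and 1.82 CPM in vehicle CHLA10 libraries. Its lowest treated CHLA10 library lay just above the highest vehicle one, and the difference was -5.11 ± 0.83 (adjusted p = 0.000126).

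TIAM1, an activator of the GTPase RAC1 (ENSG00000156299, GRCh38 chr21:31118416-31559977, minus strand), had 12.9, 17.1 and 16.7 CPM in treated and 16.6, 17.5 and 16.6 CPM in vehicle A673 libraries. In CHLA10 it had 16.2, 16.04 and 18.7 CPM in treated and 0.657, 0.472 and 0.228 CPM in vehicle libraries. The A673 groups overlapped, and treated CHLA10 cells held about the level that A673 cells had with and without drug. The difference was -5.30 ± 0.36 (adjusted p = 1.15e-10). MAP7D2, a microtubule-binding protein, had 0.265, 0.445 and 0.321 CPM in treated and 20.0, 17.3 and 13.7 CPM in vehicle A673 libraries, against 8.13, 8.72 and 9.91 CPM in treated and 12.5, 14.6 and 16.4 CPM in vehicle CHLA10 libraries. It fell in both lines, much further in A673 (-4.93 ± 0.36). SEMA6B, a semaphorin of axon guidance (-4.35 ± 0.40), NPY5R, a receptor for neuropeptide Y (-4.005 ± 0.49), and MFAP3L, a membrane protein (-4.39 ± 0.35), fell in A673 and were not called in CHLA10. ADCY1, a neural adenylate cyclase (-4.18 ± 0.41), and PLA2G4A, a phospholipase that releases arachidonic acid (-4.35 ± 0.54), fell in A673 and rose in CHLA10, and so did STAC2, an adaptor of calcium channels (-4.43 ± 0.66). CALCB, a calcitonin-gene peptide, had 3 counts in treated and 298 in vehicle A673 libraries, against 7472 in treated and 17536 in vehicle CHLA10 libraries.

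Opposite movement was also seen in a regulator, a protease and genes of neural cells. TSHZ3, a zinc-finger transcription factor of smooth muscle and neural development, rose in A673 and fell in CHLA10 (3.63 ± 0.57), and so did ADAMTS15, a protease of matrix proteoglycans (3.41 ± 0.39). DRAXIN, an axon guidance protein (-3.58 ± 0.42), and B4GALNT1, the enzyme that makes the gangliosides GM2 and GD2 (-3.38 ± 0.38), fell in A673 and rose in CHLA10. B4GALNT1 had 11.0, 8.83 and 10.6 CPM in treated and 31.4, 38.3 and 34.4 CPM in vehicle A673 libraries, against 20.4, 14.1 and 32.6 CPM in treated and 4.64, 5.71 and 11.8 CPM in vehicle CHLA10 libraries. No library of the treated groups overlapped the vehicle libraries of its line.

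Matrix genes were called in both directions. Of 32 collagen chains tested, 11 had a higher and 2 a lower response difference, beside 11.4% and 10.5% of all genes, so 40.6% were called against 21.9% of all genes, with a median of 1.24 (13 and 2 without the third treated A673 library, 14 and 3 without the 4 distant ones). COL1A2, a chain of type I collagen (ENSG00000164692, GRCh38 chr7:94394561-94431232, plus strand), had 1323, 1650 and 509 CPM in treated and 124, 155 and 166 CPM in vehicle A673 libraries. In CHLA10 the levels were 212, 194 and 74.5 CPM in treated and 328, 249 and 277 CPM in vehicle libraries. The groups did not overlap in either line, although the change in CHLA10 missed the threshold (adjusted p = 0.104), and the difference was 3.80 ± 0.56 (adjusted p = 4.22e-05). COL3A1, the type III chain, rose in A673 and fell in CHLA10 (3.69 ± 0.46), as did COL5A1, a type V chain that seeds fibrils (2.26 ± 0.25). COL4A1, a basement membrane chain, rose in A673 and was not called in CHLA10 (2.98 ± 0.46). In A673 alone 12 of the chains rose and 9 fell (background 19.7% and 19.9%), and in CHLA10 2 rose and 15 fell (background 16.5% and 17.2%).

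Of 31 other matrix genes, 9 had a higher and 2 a lower difference (35.5% called), with a median of 0.86. BGN, the small proteoglycan biglycan, had 717, 960 and 412 CPM in treated and 82.3, 73.5 and 67.5 CPM in vehicle A673 libraries, while CHLA10 libraries held 0.887 to 1.52 CPM treated and 2.05 to 2.72 CPM in vehicle. It was an abundant transcript in one line and near the detection limit in the other, and it rose in A673 and fell in CHLA10 (4.23 ± 0.38, adjusted p = 2.51e-08). FBN1, fibrillin of elastic microfibrils, differed by 3.54 ± 0.34. VCAN, the proteoglycan versican, went against the group: it fell in A673 and rose in CHLA10 (-3.95 ± 0.71). Among laminin chains, 4 of 11 were higher and 1 lower (45.5% called), 6 of the 11 were below 0, and the median was -0.06. LAMB2 rose in A673 and fell in CHLA10 (1.68 ± 0.15), and LAMB1 rose in A673 and was not called in CHLA10 (1.32 ± 0.22). LAMB3, a chain of epithelial laminin, was the lower one (-2.01 ± 0.44); it fell in both lines and lost its call under limma-voom. Among matrix proteases and their inhibitors 8 of 32 were higher and 4 lower (37.5% called); without the 4 distant libraries the counts were 14 and 5. TIMP2, an inhibitor of metalloproteases, rose in A673 and was not called in CHLA10 (1.53 ± 0.26), and TIMP3, another, fell in both lines, further in CHLA10 (1.29 ± 0.30). ADAM23, a relative of the metalloproteases, rose in CHLA10 and was not called in A673 (-1.97 ± 0.48), and the protease ADAMTS1 fell in A673 and was not called in CHLA10 (-1.57 ± 0.41).

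Receptors and anchors that bind this matrix were also among the genes called. Of 18 integrin subunits tested, 10 were higher and 1 lower (61.1% called, against 21.9% of all genes), with a median of 1.27 (10 and 1 without the third treated A673 library). ITGA1, a collagen receptor chain, had 48.0, 51.4 and 22.7 CPM in treated and 11.0, 7.19 and 6.05 CPM in vehicle A673 libraries, against 3.03, 2.18 and 3.75 CPM in treated and 4.41, 3.73 and 2.73 CPM in vehicle CHLA10 libraries. The groups were apart in A673 and overlapped in CHLA10, and the difference was 2.61 ± 0.38 (adjusted p = 1.16e-05). ITGA6, a laminin receptor chain, rose in both lines, further in A673 (2.46 ± 0.40), and ITGA11, a collagen receptor chain of fibroblasts, rose in A673 and fell in CHLA10 (3.05 ± 0.53). ITGB2, the beta chain of leukocyte integrins, fell in both lines, further in CHLA10 (2.12 ± 0.39).

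Among 35 genes of focal adhesion kinase and SRC signalling, 12 were higher and 1 lower (37.1% called, against 21.9% of all genes), with a median of 0.25. PARVA, an actin-binding partner of integrin-linked kinase, rose in A673 and fell in CHLA10 (2.36 ± 0.25), and VCL, vinculin, rose in A673 and was not called in CHLA10 (1.22 ± 0.24). SRC itself was the lower one: it fell in both lines, further in A673 (-1.50 ± 0.18). PTK2, the focal adhesion kinase, had 170, 153 and 171 CPM in treated and 163, 175 and 187 CPM in vehicle A673 libraries, against 159, 161 and 196 CPM in treated and 161, 160 and 174 CPM in vehicle CHLA10 libraries. All 4 groups overlapped, and the 95% interval of the difference ran between -0.404 and 0.106 (adjusted p = 0.432).

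Contractile and mesenchymal genes had more higher than lower calls. Of 14 smooth muscle contractile genes, 8 were higher and none lower (57.1% called, against 21.9% of all genes), and 2 were below 0, with a median of 2.08 (8 and 0 without the third treated A673 library, 8 and 1 without the 4 distant ones). In A673 alone 5 rose and 2 fell, and in CHLA10 none rose and 9 fell. ACTA2, smooth muscle actin, had 23.4, 27.8 and 9.42 CPM in treated and 20.7, 15.04 and 14.8 CPM in vehicle A673 libraries, against 15.8, 6.91 and 7.22 CPM in treated and 79.9, 81.1 and 235 CPM in vehicle CHLA10 libraries. The A673 groups overlapped, and the response difference was 3.98 ± 0.56 (adjusted p = 2.61e-05). In CHLA10 ACTA2 fell by 3.72. TPM1, a tropomyosin, and CALD1, caldesmon, which both steady actin filaments, rose in A673 and fell in CHLA10 (4.27 ± 0.55 and 2.55 ± 0.35), whereas MYLK, the myosin light chain kinase, fell in both, further in CHLA10 (1.65 ± 0.30). Of 20 mesenchymal genes, 8 were higher and 1 lower (45% called), and 5 were below 0 (median 0.85). PDGFRB, a growth factor receptor of stromal cells, had 211, 274 and 150 CPM in treated and 105, 108 and 102 CPM in vehicle A673 libraries, against 26.6, 23.9 and 28.1 CPM in treated and 77.0, 68.2 and 66.3 CPM in vehicle CHLA10 libraries. It moved in opposite directions without overlap (2.44 ± 0.21, adjusted p = 3.51e-09). SNAI2, a repressor of epithelial genes, rose in A673 and was not called in CHLA10 (2.21 ± 0.43).

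Lists named for pathways that control such genes also had more higher than lower calls. Of 17 YAP and TAZ target genes, 9 were higher and 1 lower (58.8% called, against 21.9% of all genes), with a median of 1.46 (12 and 1 without the third treated A673 library). AJUBA, a LIM protein of the Hippo pathway, rose in A673 and fell in CHLA10 (1.65 ± 0.22). Of 23 TGF-beta ligands, receptors and feedback targets, 7 were higher and 2 lower (39.1% called, median 0.62); beside TGFB2, LTBP1, which holds latent TGF-beta in the matrix, was higher (1.60 ± 0.28) and BMPR1A, a BMP receptor, lower (-0.86 ± 0.19). TGFB3 fell in both lines, further in CHLA10 (1.01 ± 0.26). These lists share genes with each other, TGFB2 among them, so their counts are not separate evidence.

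Targets of the fusion were split. Of 20 tested genes known to be repressed by EWS::FLI1, 10 were higher and 2 lower (60% called, against 21.9% of all genes), with a median of 1.57 (15 and 1 without the third treated A673 library, 16 and 2 without the 4 distant ones). By library, the median member lay 2.03, 2.05 and 0.78 above the vehicle mean in treated A673 cells, and -0.30, -0.23 and 1.14 from it in treated CHLA10 cells; the third CHLA10 vehicle library itself lay 0.66 above its group's mean. These values are relative to each line's own vehicle mean. By them the third treated CHLA10 library lay above the third treated A673 library, whereas the first and second treated CHLA10 libraries lay below all treated A673 libraries. TNC, the matrix protein tenascin C, was one of the 2 lower ones (-2.02 ± 0.53); it fell in A673 and rose in CHLA10, and lost its call in a fit of only the 12 libraries. IGFBP3, which binds insulin-like growth factors, fell in CHLA10 and was not called in A673 (2.10 ± 0.64), with levels of 0.696 to 1.14 CPM treated and 0.367 to 0.967 CPM in vehicle in A673. Its call was lost under limma-voom (adjusted p = 0.057) and without any 1 of 3 libraries: the second treated A673 (adjusted p = 0.0631), the second A673 vehicle (0.0621) or the third CHLA10 vehicle library (0.0562).

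Genes that EWS::FLI1 activates showed no such lean. Of 30, 20 fell in each line, and the response difference was higher in 4 and lower in 4 (26.7% called, against 21.9% of all genes), with a median of 0.00 whose sign turned with other scalings. Without the 4 distant libraries the counts were 7 and 11. NPY1R, a receptor for neuropeptide Y, had 32.9, 36.2 and 38.6 CPM in treated and 369, 345 and 349 CPM in vehicle A673 libraries, against 353, 297 and 113 CPM in treated and 465, 513 and 369 CPM in vehicle CHLA10 libraries. It fell in both lines, further in A673 (-2.48 ± 0.31). FCGRT, the neonatal Fc receptor, did likewise (-1.86 ± 0.39), and LIPI, a lipase known as an Ewing sarcoma antigen, fell in CHLA10 and was not called in A673 (1.403 ± 0.34, lost in a fit of only the 12 libraries). For NKX2-2, CCND1 and CD99, which are used as markers or known targets of the fusion, the 95% intervals of the difference ran between -0.643 and 1.642, -0.382 and 0.424, and -0.538 and 0.150. The sign of NKX2-2 turned without the third treated A673 library (-0.12), as did that of CCND1 without the 4 distant libraries (-0.14). NR0B1, a nuclear receptor that the fusion activates, fell in A673 and was not called in CHLA10; it differed by -1.25 ± 0.45 with an adjusted p of 0.0474, and the call was lost in 13 of the alternatives, 10 of which left out 1 library.

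**Figure D3:**
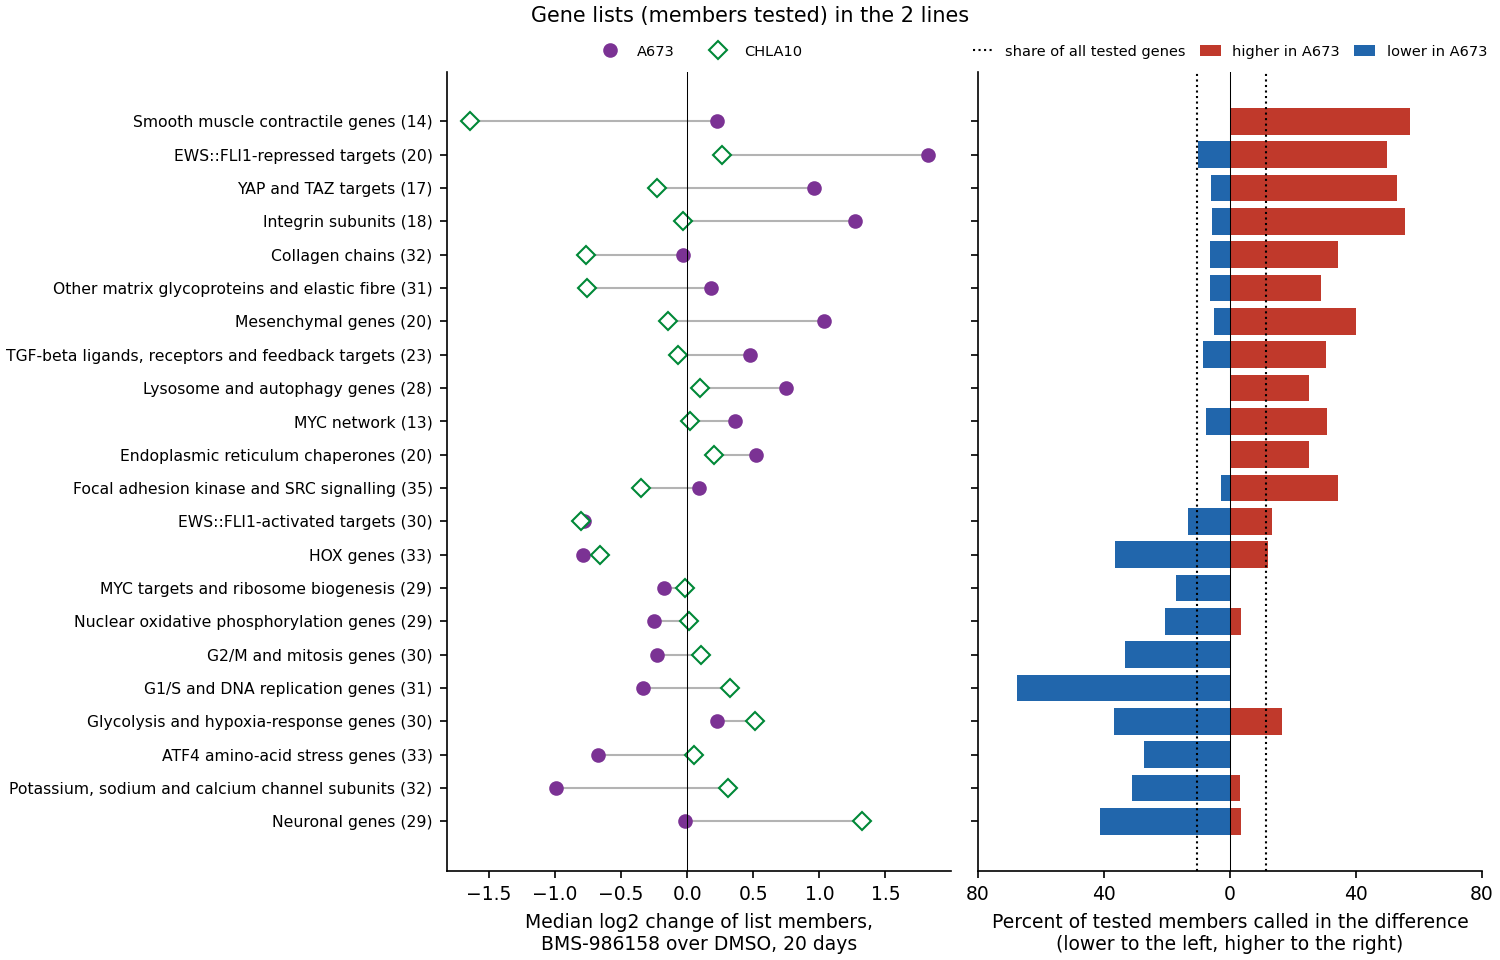
Left, the median log2 change with BMS-986158 over DMSO of the tested members of 22 gene lists in A673 (filled) and CHLA10 (open); right, the percent of members called higher (red) or lower (blue) in the response difference, with dotted lines at the shares of all tested genes. Smooth muscle, repressed-target, YAP and TAZ, integrin and collagen lists have higher medians in A673 than in CHLA10 and mostly higher calls, the neuronal, ion channel and G1/S lists mostly lower ones.

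Genes of DNA replication were called lower and not higher. Of 31 G1/S and DNA replication genes, 21 were lower and none higher (67.7% called, against 21.9% of all genes), and 30 had a negative difference; the median was -0.54. In A673 18 fell and 1 rose, in CHLA10 17 rose and none fell, and 7 did both, falling in A673 and rising in CHLA10. The count was 0 and 22 without the third treated A673 library and 0 and 25 without the 4 distant ones. The median member lay at -0.28, -0.31 and -0.37 in the 3 treated A673 libraries and at 0.32, 0.32 and 0.27 in the 3 treated CHLA10 libraries, relative to vehicle. In this list the third treated libraries did not stand apart from the others. The third CHLA10 vehicle library lay at 0.175 from its group's mean, against -0.11 and -0.087 for the first and second.

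E2F1 (ENSG00000101412, GRCh38 chr20:33675683-33686404, minus strand), whose promoter is shown above, had 128, 114 and 127 CPM in treated and 174, 154 and 143 CPM in vehicle A673 libraries. In CHLA10 E2F1 had 156, 151 and 173 CPM in treated and 82.3, 87.6 and 125 CPM in vehicle libraries. Treated libraries were all below vehicle in A673 and all above in CHLA10, and the difference was -1.05 ± 0.18 (adjusted p = 9.78e-05). GINS2 and GINS1, helicase subunits, fell in A673 and were not called in CHLA10 (-0.97 ± 0.15 and -0.95 ± 0.23), and CDC45, their partner, fell in A673 and rose in CHLA10 (-0.94 ± 0.17). The promoters of GINS1 and CDC45 held no match to TTTNNCGC, which says only that these letters are not in those windows. Of 30 G2/M and mitosis genes, 10 were lower and none higher (33.3% called; median -0.32; 0 and 9 without the third treated A673 library, 0 and 17 without the 4 distant ones). UBE2C, which helps to end mitosis, fell in A673 and rose in CHLA10 (-0.76 ± 0.18). The kinases AURKA and AURKB fell in A673 and were not called in CHLA10 (-0.71 ± 0.17 and -0.70 ± 0.17). CENPA, the histone of centromeres, rose in CHLA10 and was not called in A673 (-0.70 ± 0.20).

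**Figure D4:**
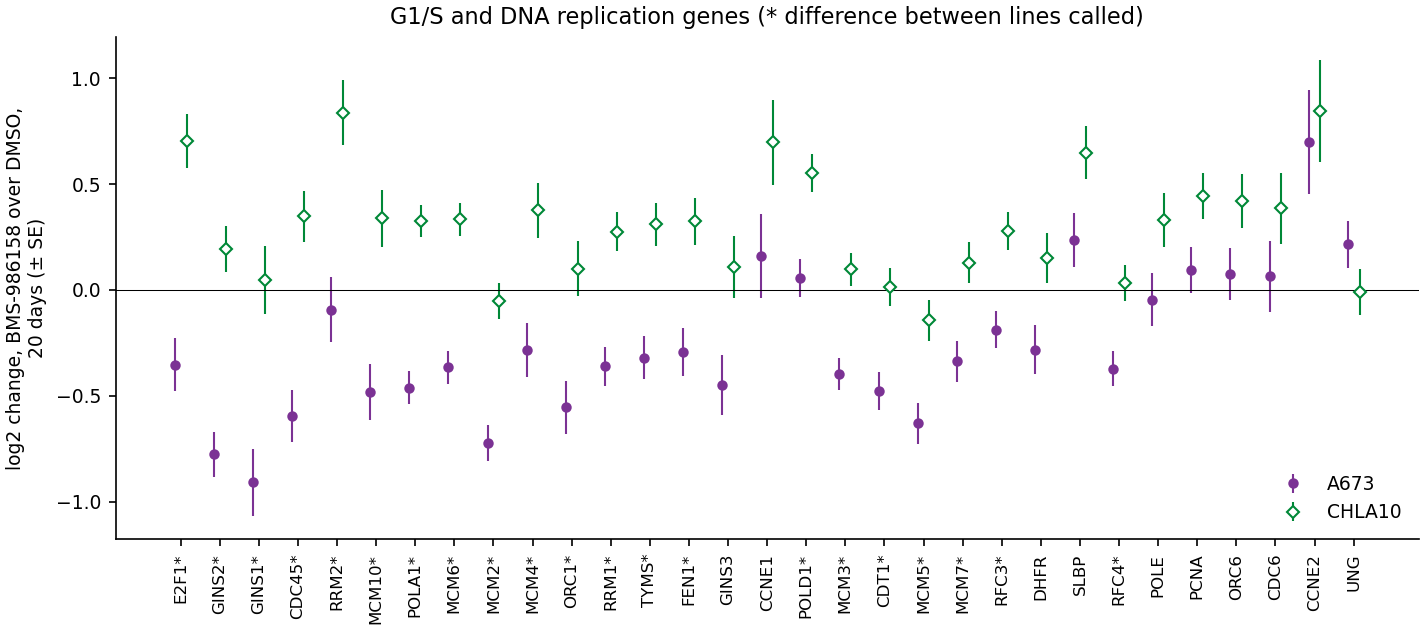
Log2 change with BMS-986158 over DMSO after 20 days, with standard errors, of 31 G1/S and DNA replication genes in A673 (filled) and CHLA10 (open), ordered by their difference; an asterisk marks the 21 called. The A673 value lies below the CHLA10 value in 30 of the 31 genes, the exception being UNG, a uracil glycosylase that was named here after its values were seen.

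The regulators around the cell cycle differed one by one. CCND2, cyclin D2, had 3.65, 4.13 and 8.51 CPM in treated and 16.9, 18.2 and 17.5 CPM in vehicle A673 libraries, against 1.94, 1.26 and 0.530 CPM in treated and 54.8, 49.04 and 26.9 CPM in vehicle CHLA10 libraries. It fell in both lines, further in CHLA10 (3.44 ± 0.70, adjusted p = 0.00106). CCND3, cyclin D3, rose in CHLA10 and was not called in A673 (-0.68 ± 0.17). Of the inhibitors of cyclin-dependent kinases, CDKN2D rose in both lines, further in CHLA10 (-1.04 ± 0.19), and CDKN2C fell in A673 and rose in CHLA10 (-0.71 ± 0.15). Among 22 p53 target genes the difference was higher in 6 and lower in 5 (50% called, against 21.9% of all genes): TP53INP1, an inducer of cell death and autophagy, rose in A673 and was not called in CHLA10 (1.94 ± 0.20), BTG2, an antiproliferative gene, fell in CHLA10 and was not called in A673 (2.26 ± 0.36), and AEN, a nuclease, fell in A673 (-1.24 ± 0.29). In the BCL2 family 4 of 15 were higher and 2 lower (40% called), with the proapoptotic gene BOK rising in A673 and falling in CHLA10 (2.55 ± 0.40). BBC3 (1.38 ± 0.39) and BMF (1.24 ± 0.24), also proapoptotic, rose in A673 and were not called in CHLA10, and PMAIP1 rose in CHLA10 and was not called in A673 (-1.68 ± 0.36).

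MYC and several of the repressors that compete with it for its partner MAX had positive differences. MXD4, one of those repressors (ENSG00000123933, GRCh38 chr4:2247432-2262294, minus strand), had 97.8, 84.9 and 88.6 CPM in treated and 15.2, 15.3 and 17.8 CPM in vehicle A673 libraries. In CHLA10 it had 91.8, 96.5 and 80.8 CPM in treated and 114, 106 and 96.3 CPM in vehicle libraries. Treated A673 cells thus came to the level that CHLA10 cells had with and without drug, and all 3 treated A673 libraries were alike. The difference was 2.73 ± 0.14 (adjusted p = 6.84e-14). MXI1, another of the repressors, rose in A673 and fell in CHLA10 (2.02 ± 0.28), and MXD1 rose in A673 and was not called in CHLA10 (1.27 ± 0.31). Of 13 genes of the MYC network 4 were higher and 1 lower (38.5% called, against 21.9% of all genes), the lower one being MLX, a partner of related factors, which fell in A673 (-0.92 ± 0.13). MYC itself had 397, 332 and 427 CPM in treated and 272, 226 and 216 CPM in vehicle A673 libraries, against 369, 365 and 335 CPM in treated and 474, 418 and 402 CPM in vehicle CHLA10 libraries. It rose in A673 and fell in CHLA10 without overlap in either line (0.97 ± 0.14, adjusted p = 1.34e-05). Of 29 MYC target and ribosome biogenesis genes, none was higher and 5 were lower (17.2% called, median -0.25), 8 without the 4 distant libraries. CAD, which starts pyrimidine synthesis, fell in A673 and rose in CHLA10 (-0.88 ± 0.18), and LDHA, lactate dehydrogenase, rose in CHLA10 and was not called in A673 (-0.82 ± 0.22, lost in a fit of only the 12 libraries).

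Neuronal genes had more lower than higher calls. Of 29 tested, 12 were lower and 1 higher (44.8% called, against 21.9% of all genes), with a median of -1.42; in A673 10 rose and 8 fell, and in CHLA10 14 rose and 2 fell. The counts were the same without the third treated A673 library, and 12 lower and 3 higher without the 4 distant ones. ENO2, neuron-specific enolase, had 15.4, 12.5 and 26.4 CPM in treated and 24.2, 54.6 and 52.2 CPM in vehicle A673 libraries, against 180, 161 and 219 CPM in treated and 71.1, 69.5 and 83.5 CPM in vehicle CHLA10 libraries. The A673 groups overlapped through 1 treated library, the CHLA10 groups did not, and the difference was -2.58 ± 0.31 (adjusted p = 1.72e-06). NEFM, a neurofilament chain, fell in A673 and rose in CHLA10 (-4.07 ± 0.77), with 1.28, 1.15 and 0.163 CPM in treated and 0.281, 0.142 and 0.171 CPM in vehicle CHLA10 libraries, where the groups overlapped. CHGA, a granule protein, rose in CHLA10 and was not called in A673 (-3.03 ± 0.92). Its call was lost without the third treated CHLA10 library (-2.14, adjusted p = 0.102), without the second CHLA10 vehicle library (adjusted p = 0.0661) and in a fit of only the 12 libraries (0.0683). L1CAM, described above, was the higher one. NCAM1, a neural adhesion molecule, had 65.9, 57.8 and 80.5 CPM in treated and 24.5, 28.9 and 31.3 CPM in vehicle A673 libraries, against 110, 137 and 248 CPM in treated and 13.6, 13.4 and 23.0 CPM in vehicle CHLA10 libraries. It rose in both lines without overlap, further in CHLA10 (-2.04 ± 0.35). MAP2, a dendritic microtubule protein, rose in both lines, by 3.57 in A673 and 4.27 in CHLA10, and the interval of its difference ran between -1.616 and 0.224 (adjusted p = 0.29).

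Of 32 potassium, sodium and calcium channel subunits, 10 were lower and 1 higher (34.4% called, against 21.9% of all genes; median -0.83; 11 and 1 without the third treated A673 library). KCNH2, a potassium channel, had 0.900, 0.763 and 2.04 CPM in treated and 9.06, 18.5 and 16.8 CPM in vehicle A673 libraries and was not called in CHLA10 (-2.96 ± 0.54). Among 33 HOX genes, which mark position along the body axis, 12 were lower and 4 higher (48.5% called), so members of this family went both ways. HOXB8 (-3.49 ± 0.51) and HOXB2 (-1.97 ± 0.23) fell in A673 and were not called in CHLA10, while HOXD10 rose in A673 and fell in CHLA10 (1.91 ± 0.23). HOXD10 had 87.1, 98.2 and 124 CPM in treated and 42.5, 55.0 and 46.7 CPM in vehicle A673 libraries, against 20.2, 20.2 and 31.96 CPM in treated and 39.1, 33.5 and 54.7 CPM in vehicle CHLA10 libraries. Among neurogenic transcription factors 2 of 17 were higher and 2 lower (23.5% called); HAND2, a factor of sympathetic neurons, fell in A673 and was not called in CHLA10 (-1.77 ± 0.26). Of 42 axon guidance genes 8 were lower and 4 higher (28.6% called): EPHB2, an ephrin receptor, fell in A673 and rose in CHLA10 (-1.91 ± 0.21), and PLXNC1, a semaphorin receptor, did the opposite (3.35 ± 0.32). Without the 4 distant libraries 13 axon guidance genes were lower and 11 higher.

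Signalling genes were mixed. Of 33 WNT genes 8 were higher and 7 lower, of 20 Notch genes 4 and 3, of 33 receptor tyrosine kinases 6 and 2, and of 20 genes of the IGF axis 6 and 3. These are 45.5%, 35%, 24.2% and 45% called, against 21.9% of all genes. Without the third treated A673 library, Notch genes had 2 higher and 7 lower and IGF genes 6 and 5. IGFBP7, a binding protein of insulin-like growth factors, had 23.8, 31.3 and 12.7 CPM in treated and 0.609, 0.147 and 0.0969 CPM in vehicle A673 libraries, with a difference of 5.04 ± 0.95. IGFBP4 had 2.75, 2.48 and 3.48 CPM in treated and 24.4, 26.5 and 26.4 CPM in vehicle A673 libraries, against 195, 229 and 304 CPM in treated and 210, 222 and 203 CPM in vehicle CHLA10 libraries. The groups were apart in A673 and overlapped in CHLA10 (-3.34 ± 0.23, adjusted p = 1.32e-10). IGF1, a growth factor of this tumour, fell in both lines, by 2.65 in A673 and by 3.96 in CHLA10, a difference of 1.31 ± 0.29 (adjusted p = 0.00171). STC1, a secreted glycoprotein on the same list, rose in CHLA10 and was not called in A673 (-2.79 ± 0.30). FGFR2, a fibroblast growth factor receptor, did the same (-2.27 ± 0.30).

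Stress and metabolic lists had more lower than higher calls, some at shares near that of all genes. Of 33 ATF4 amino-acid stress genes 9 were lower and none higher (27.3% called, against 21.9% of all genes; median -0.76), but the count became 18 lower and 3 higher without the 4 distant libraries. TRIB3, a pseudokinase induced by ATF4, had 10.9, 10.2 and 11.99 CPM in treated and 44.6, 64.3 and 64.5 CPM in vehicle A673 libraries, against 12.4, 9.61 and 9.99 CPM in treated and 12.8, 10.1 and 14.4 CPM in vehicle CHLA10 libraries. Vehicle A673 cells stood above the other 3 groups (-2.17 ± 0.56); ASNS, asparagine synthetase, rose in CHLA10 (-1.83 ± 0.57). Both lost their calls under limma-voom, and ASNS also without any 1 of 4 libraries, with adjusted p between 0.0526 and 0.0642. Of 30 glycolysis and hypoxia-response genes 11 were lower and 5 higher (53.3% called; median -0.56; 9 and 5 without the third treated A673 library). SLC2A3, a glucose transporter, fell in A673 and was not called in CHLA10 (-2.04 ± 0.45), EGLN3, an oxygen sensor, rose in both lines, further in CHLA10 (-2.80 ± 0.49), and NDRG1, a stress gene, rose in A673 and was not called in CHLA10 (2.32 ± 0.54). Of 29 nuclear genes of oxidative phosphorylation 6 were lower and 1 higher (24.1% called); with library sizes as plain totals, the counts were 14 and 0. Of 25 cholesterol synthesis genes 4 were lower and 1 higher (20% called; 11 and 1 without the 4 distant libraries), and of 13 fatty acid synthesis genes 5 were lower and none higher (38.5% called; 8 and 1 without the 4 distant libraries), among them FASN, fatty acid synthase, which rose in CHLA10 (-1.29 ± 0.28). In treated CHLA10 libraries the first stood highest. Relative to vehicle, the median cholesterol gene lay at 0.941, 0.09 and 0.032 there, and the median fatty acid gene at 0.51, 0.133 and -0.047. In treated A673 libraries these medians were 0.051, 0.081 and -0.154, and -0.204, -0.209 and -0.203.

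Of 28 lysosome and autophagy genes 7 were higher and none lower (25% called, against 21.9% of all genes; median 0.30), 12 without the third treated A673 library and 16 without the 4 distant ones. MAP1LC3B, an autophagosome protein, had 230, 233 and 128 CPM in treated and 78.3, 71.8 and 70.5 CPM in vehicle A673 libraries, against 69.7, 64.1 and 93.6 CPM in treated and 60.8, 62.9 and 71.1 CPM in vehicle CHLA10 libraries. The groups were apart in A673 and overlapped in CHLA10 (1.20 ± 0.21, adjusted p = 0.000142). Of 20 endoplasmic reticulum chaperones 5 were higher and none lower (25% called; 9 and 0 without the third treated A673 library, 13 and 1 without the 4 distant ones). Of 16 MHC class I genes 6 were higher and 1 lower (43.8% called); HLA-B (2.45 ± 0.38) and HLA-E (0.94 ± 0.20) rose in A673, but reads of these genes can be split with near-identical relatives. Of 28 interferon-stimulated genes 1 was higher and 4 lower (17.9% called; 1 and 7 without the 4 distant libraries). Relative to vehicle, their median lay at 0.928, -0.717 and -0.19 in treated CHLA10 libraries. In treated A673 libraries it lay at -0.797, -0.785 and -0.549.

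Of 8 genes used as markers of BET inhibition, 6 rose and 1 fell in both lines. Of 12 BET and P-TEFb regulators 2 were higher and 1 lower (25% called, against 21.9% of all genes), and of the 8 markers 3 were higher and none lower (37.5% called). HEXIM1, an inhibitor of P-TEFb that is a usual marker of BET inhibition, had 95.7, 96.2 and 69.6 CPM in treated and 53.4, 40.03 and 45.3 CPM in vehicle A673 libraries, against 137, 160 and 177 CPM in treated and 104, 101 and 95.7 CPM in vehicle CHLA10 libraries. It rose in both lines without overlap, and the difference had an interval of -0.077 to 0.587 (adjusted p = 0.282); without the 4 distant libraries it was 0.50 and called (adjusted p = 0.00465). SERPINI1, another marker of BET inhibition, rose in both lines, by 2.58 in A673 and 2.04 in CHLA10, and its difference had an interval of -0.363 to 1.430. ZCCHC24, also such a marker, rose in both lines, further in A673 (0.69 ± 0.15). The histone gene H2AC6 rose in A673 and fell in CHLA10 (2.96 ± 0.39). It was 1 of 3 higher among 15 polyadenylated histone genes, with 1 lower (26.7% called, against 21.9% of all genes). Histone genes have near-identical copies among which reads can be split.

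Markers of other cell types did not move as 1 group, and they are given here as values. Fibroblast markers summed to 1470 to 3550 CPM in treated and 1110 to 1170 CPM in vehicle A673 libraries, and to 501 to 767 CPM in treated and 927 to 1390 CPM in vehicle CHLA10 libraries. Of 10, 4 had a higher and 1 a lower response difference (50% called, against 21.9% of all genes). The fibroblast genes LUM and DCN had no counts in treated A673 libraries, and LUM had none in A673 vehicle libraries either. Epithelial markers summed to 128 to 652 CPM in treated and 175 to 202 CPM in vehicle A673 libraries, and to 3.11 to 5.87 CPM in treated and 37.8 to 74.4 CPM in vehicle CHLA10 libraries. Of 7 tested, 2 were higher and none lower (28.6% called, near the share of all genes). KRT18, a keratin, had 626, 532 and 113 CPM in treated and 143, 111 and 115 CPM in vehicle A673 libraries, and its difference was 3.24 ± 0.60, a call lost under limma-voom. The third treated A673 library lay at the vehicle level. The epithelial keratin gene KRT5 was at 0 in all 4 groups. Skeletal muscle markers summed to 7.63 to 17.5 CPM in treated and 45.7 to 46.1 CPM in vehicle A673 libraries, and to 17.7 to 22.6 CPM in treated and 114 to 180 CPM in vehicle CHLA10 libraries. Of 5 tested, 2 were higher and none lower (40% called). Endothelial markers had 1 of 6 higher and 1 lower (33.3% called), and leukocyte markers none of 3. The part of other cell types in the differences was not tested.

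The 3-day libraries date the difference. At 3 days 1756 genes (10.5%) had a called response difference, 811 higher and 945 lower in A673, against 3666 at 20 days. Of the genes called at either time, 731 were called at both, which is 41.6% of the 3-day and 19.9% of the 20-day calls, and 622 of them had the same sign; these differences share no libraries. The change of the response difference between the times was called for 1647 genes (9.85%), 861 higher (5.15%) and 786 lower (4.7%) at 20 days.

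LOX averaged 3.28 ± 0.20 CPM in treated and 3.80 ± 0.53 CPM in vehicle A673 cells at 3 days (SD, n = 3), and 57.7 ± 13.7 CPM in treated and 147 ± 5.02 CPM in vehicle CHLA10 cells. The response difference was 1.16 ± 0.85 then and 6.60 at 20 days, and the change of 5.44 ± 1.13 was called (adjusted p = 0.00448). At 3 days the CHLA10 groups thus already stood apart, treated below vehicle, while the A673 groups were close. MXD4 had a difference of 0.09 at 3 days and 2.73 at 20 days (change 2.64, adjusted p = 7.53e-10). LIMS2 changed by 5.93, BGN by 3.79 and VGF by -4.96. Some differences were of like size at both times: ADAMTS15 differed by 3.03 at 3 days and 3.41 at 20 days, ACTA2 by 4.29 and 3.98, and SERTM1, a membrane protein, by -3.01 and -3.88. ZIC2, a neural transcription factor, had 13764 counts in treated and 11714 in vehicle A673 libraries at 20 days, but 2 in treated and 6 in vehicle CHLA10 libraries, so no change is read for it.

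Counts of several lists differed between the times. Of 32 collagen chains, 2 had a higher and 3 a lower difference at 3 days (median -0.04; background 4.85% and 5.65%) and 11 and 2 at 20 days. Between the times 9 changed upward and none downward (background 5.15% and 4.7%), and 23 were not called. Of 31 G1/S genes, 10 were higher and none lower at 3 days (median 0.32), the opposite of the 20-day count, and 21 changed downward with none upward. E2F1 differed by 0.58 at 3 days (adjusted p = 0.0365) and by -1.05 at 20 days. MYC targets did likewise: 12 of 29 were higher at 3 days and none lower, none higher and 5 lower at 20 days, and 13 changed downward. Of 33 ATF4 genes 19 were lower and none higher at 3 days, and 2 changed upward with none downward. All these 3-day counts use the A673 vehicle libraries of day 3, of which the third lay apart (SD 0.684, against 0.517 and 0.48). Without that library the change between the times was called in 2578 genes, against 1647 with it. List counts without it are not given, so its part in them was not tested. CSF1, a macrophage growth factor, changed by 4.27, and ARNT2, a partner of hypoxia-inducible factors, by -4.11: it differed by 2.02 at 3 days and by -2.09 at 20 days.

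**Figure D5:**
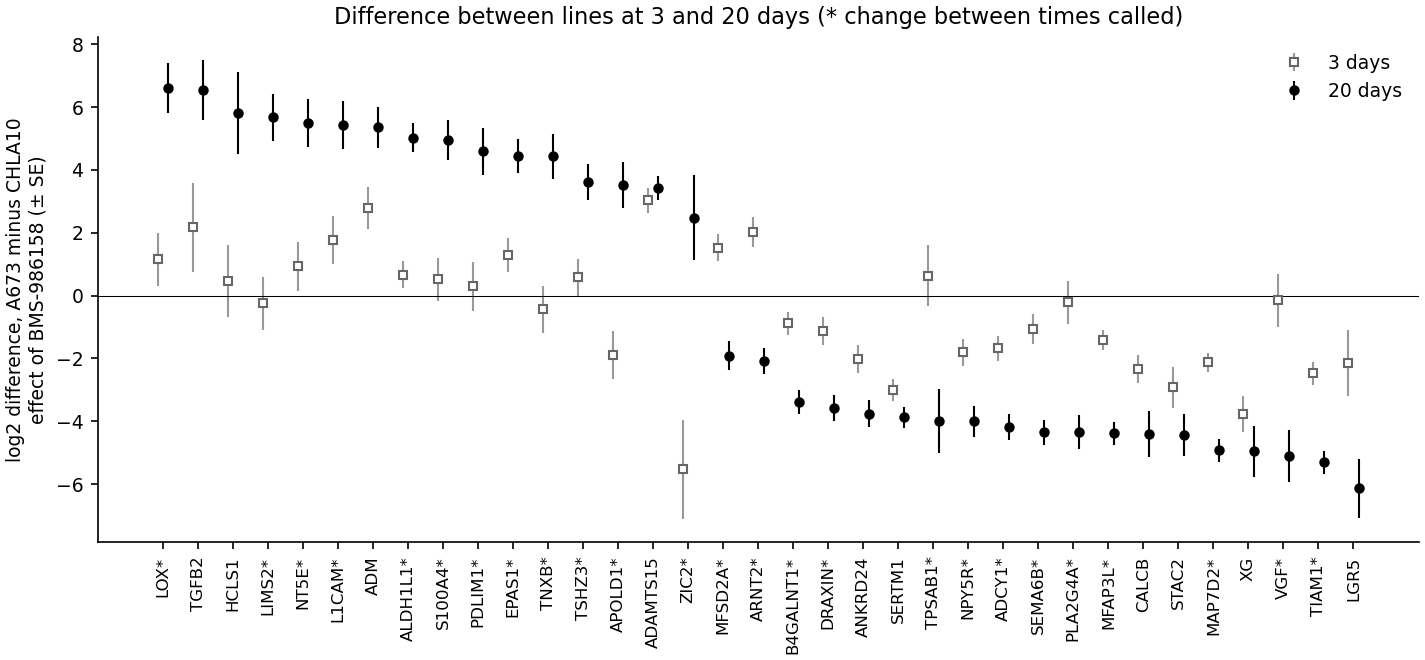
Response difference (A673 minus CHLA10, log2, with standard errors) at 3 days (open squares) and 20 days (filled circles) of the genes at the ends of either order; an asterisk marks those whose change between the times was called. LOX was at 1.16 and 6.60, TIAM1 at -2.48 and -5.30, and ADAMTS15 and SERTM1 had close values at both times; ZIC2 rests on 8 counts in CHLA10 at 20 days.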

How the data were processed

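Poly(A) RNA was sequenced in 30 libraries on a NovaSeq, all given as batch 1 in the labels. The authors deposited a table of whole-number read counts per gene; per the submitters' processing notes, FastQC, Trim Galore, STAR and DESeq2 were used with GRCh38/hg38, while the labels and notes name no versions, no annotation release and no strand setting. Without a strand setting, reads of a gene and an antisense partner cannot be told apart. Gene types and positions came from GENCODE 29, and promoters from RefSeq (GRCh38.p14).

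The counts were normalised with TMM and fitted in edgeR 4.0.16 (R 4.3.3) with 1 quasi-likelihood model over all 30 libraries and a mean per group, after edgeR's filter on low counts, which kept 16713 of 33538 genes. Each contrast was called at a Benjamini-Hochberg adjusted p below 0.05. Log2 CPM values used a prior count of 2, and fitted changes used edgeR's default. Standard errors are the log2 change over the root of F. Limits of a low depth show in genes at 0 to 3 counts in a group, for which no fitted change is read. Such floors cover the counting error of the low group only. Nothing was estimated across lines beyond the contrasts, and no gene set was tested: lists are described by counts, with the share of all genes given for comparison.

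The members and the 53 gene lists were chosen with earlier results of these data known. Named genes were the 12 highest and 12 lowest response differences with a mean log2 CPM of at least 2, an adjusted p below 0.05 and no overlap of the 9 treated-minus-vehicle pairs between lines, 6 and 6 that moved in opposite directions, up to 4 per list, 5 and 5 by change between the times, and a few fixed genes. Markers at 0 and other genes outside the rule were chosen after their values were seen. Alternatives were DESeq2 1.42.0, limma-voom 3.58.1, other scalings and filters, a replicate term and leaving out libraries. The code was tested on simulated data. Results for some items are not reported here.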

Additional observations from a re-analysis of the deposited data

Results flagged for a closer look

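The count of 3666 genes with a response difference at 20 days and the 1647 genes whose difference changed between 3 and 20 days are repeated here because each comes from a test of the difference between effects itself.

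Among genes whose changes were called in opposite directions in the lines, LOX (6.60), TGFB2 (6.55), LIMS2 (5.68), S100A4 (4.95), TSHZ3 (3.63) and ADAMTS15 (3.41) rose in A673 and fell in CHLA10. LGR5 (-6.14), VGF (-5.11), SERTM1 (-3.88), ANKRD24 (-3.76), DRAXIN (-3.58) and B4GALNT1 (-3.38) did the opposite. In LOX, TGFB2, LIMS2, S100A4, LGR5 and VGF the third treated A673 library lay nearer to the vehicle libraries than the other treated ones; its part in these values beyond the fits without it was not tested.

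Between 3 and 20 days the difference moved upward in LIMS2 (5.93), LOX (5.44), APOLD1 (5.43) and TNXB (4.86), and downward in VGF (-4.96), TPSAB1 (-4.62), PLA2G4A (-4.14), ARNT2 (-4.11) and MFSD2A (-3.43). Such a move can include a turn of sign, as in ARNT2. TNXB and TPSAB1 have near-identical copies among which reads can be split. The 20-day calls of APOLD1, TNXB and TPSAB1 were lost under limma-voom (adjusted p = 0.135, 0.0565 and 0.255). That of TPSAB1 was also lost in the edgeR fit without the third treated CHLA10 library (adjusted p = 0.0721). ZIC2 had a fitted change of 8.01, which is no bound, since CHLA10 held 8 ZIC2 counts over its 6 libraries at 20 days.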

How the results depend on the processing

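Of 195 named genes 186 had a called response difference, none of which turned its sign under the alternatives run, and 149 kept the call under each; among the uncalled ones NKX2-2 and CCND1 turned sign. Apart from the fixed genes and those taken by change between the times, the named genes were chosen by that call and by non-overlap in these data. These counts therefore do not speak for the other called genes. Without the 4 distant libraries the response difference was called in 5527 genes and its change between the times in 4429; the cause was not tested. At an adjusted p below 0.01 the counts were 2084 for the response difference, 3719 for CHLA10 alone and 586 for the change, and with an absolute log2 change of at least 1 they were 1781, 2776 for A673 alone, 2315 for CHLA10 alone and 938 for the change; both are stricter by construction. Leaving out 1 library at a time gave 2883 to 4254 calls for the response difference, 5562 to 6913 for A673, 4284 to 5637 for CHLA10 and 1098 to 2578 for the change, the highest without the third A673 vehicle library of day 3 and the lowest without the second CHLA10 vehicle library of day 20. DESeq2 called 4186 genes and limma-voom 3655. A fit of only the libraries in the contrast called 2473.

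With library sizes as plain totals, higher calls made up 40.7% of calls in the response difference, 37.1% (against 49.8%) in A673, 44.8% (against 48.9%) in CHLA10 and 42.7% (against 52.3%) in the change, and the median of all genes moved by -0.115 in A673. BRD3, TFAP2B, RFNG, RPL10 and MT-ATP8 lost their call without the third treated A673 library, and BRD3, TFAP2B, PAX3, HEY1, RFNG and HOXD3 without the 4 distant ones.

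The replicate numbers were not taken as pairs: same-numbered treated and vehicle libraries had deviations that correlated at 0.16, -0.162 and 0.102 in A673 and at 0.199, 0.15 and 0.361 in CHLA10, and the second treated CHLA10 library correlated best with vehicle library 1 (0.152). A fit with the replicate number as a block called 4074 genes for the response difference.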

Other observations

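Some gene groups outside the comparisons above are given as values. Of 35 cytosolic ribosomal protein genes 3 had a higher and none a lower response difference (8.57% called, against 21.9% of all genes; 8 and 0 without the 4 distant libraries), but these genes have many near-identical copies. Of 26 immediate early and AP-1 genes 5 were higher and 2 lower (26.9% called; 11 and 2 without the 4 distant libraries). DUSP4, a phosphatase that restrains MAP kinases, fell in CHLA10 and was not called in A673 (3.39 ± 0.32), and JUNB, an AP-1 subunit, fell in A673 and rose in CHLA10 (-1.55 ± 0.32). Of 22 cadherins and protocadherins 3 were higher and 3 lower (27.3% called), and of 18 ABC transporters 3 and 2 (27.8% called), with ABCA3, a lipid transporter, rising in both lines, further in A673 (1.04 ± 0.23). Of 23 redox and NRF2 target genes none was higher and 3 were lower (13% called).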
